A study of Mus musculus with 17 samples.

Results

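The DNA replication licensing and fork genes were 46 genes chosen by symbol, as genes that prepare origins, open and copy the DNA or supply its building blocks. All 46 were found in both deposited count tables, among the 26029 genes of the model 1 table and the 24659 genes of the model 2 table, and all 46 passed the low-count filter of each fit. In G1 the origin recognition complex marks origins, and CDC6 and CDT1 load the MCM2-7 ring on them, which is called licensing and is held back by geminin. At the start of S phase the CDC7-DBF4 kinase, CDC45, the GINS complex and MCM10 turn the ring into a moving helicase, and polymerases, primase, the sliding clamp and its loader copy the opened strands. Many of these genes are read from E2F sites at the G1 to S transition, so their RNA levels are widely used as a sign of proliferation, which is high in erythroid precursors.

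RNA was sequenced from cultured erythroid blasts of TgSpi1 mice, with 1 library per mouse. These mice overexpress the transcription factor SPI1 from a transgene and develop a preleukaemic erythroid disorder. With Fanca intact it rarely becomes leukaemia by itself. Model 1 (DBA2JxFVB/N) held 4 TgSpi1FA+/+ preleukaemic libraries (preleukemic_445, preleukemic_479, preleukemic_451 and preleukemic_138), 3 TgSpi1FA-/- preleukaemic libraries (preleukemic_77, preleukemic_224 and preleukemic_40) and 3 TgSpi1FA-/- leukaemic libraries (leukemic_26, leukemic_28 and leukemic_39), where FA-/- means that Fanca, a gene of the Fanconi anaemia DNA repair pathway, was inactivated in the germline. Model 2 (DBA2J) held 4 TgSpi1 preleukaemic (preleukemic_633, preleukemic_663, preleukemic_812 and preleukemic_837) and 3 TgSpi1 leukaemic libraries (leukemic_601, leukemic_606 and leukemic_921), all with Fanca intact. All 17 mice carried the Spi1 transgene, all cultures were kept with erythropoietin (EPO) and diluted 2 days before extraction, and the ages of the mice are not given in the sources used here. Libraries are named by stage and mouse number as in the sample titles, and values below follow these orders. Preleukaemic blasts were EPO-dependent and did not form tumours, and the leukaemic blasts of model 2 came from mice that received serial transfusions of blood. Model, strain and library protocol (400 ng of RNA and 8 min of fragmentation in model 1, 300 ng and 2 min in model 2) cannot be told apart, and the tables were scaled separately, so levels are compared within a model.

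Libraries held 29964576 to 38217654 counted reads in model 1 and 37726753 to 40514205 in model 2. Fanca was between 0.615 and 2.30 CPM in the 6 TgSpi1FA-/- libraries and between 28.1 and 83.5 CPM in the other 11. Spi1 was above 100 CPM in 16 libraries and at 3.88 CPM in leukemic_39, which stands apart from the other 16 in this. It was also lower at the leukaemic stage in both models, without overlap. In model 2 it was 103 to 188 CPM in leukaemic and 215 to 332 CPM in preleukaemic libraries. In model 1 it was 630, 220 and 3.88 CPM in leukaemic and 670 to 781 CPM in TgSpi1FA-/- preleukaemic libraries, with 467 to 1061 CPM in TgSpi1FA+/+ preleukaemic libraries. All 11 erythroid markers were present at a mean of at least 1 CPM in every group, and myeloid, B lymphoid, T lymphoid and stromal or endothelial markers were below 1 CPM on average in every group (summed levels up to 1.78, 0.521, 0.301 and 3.68 CPM), with Ly6g, Ms4a1, Cd8a, Trac and Col3a1 at 0 in all of them. The summed erythroid markers were lower in model 1 leukaemic (3221 to 4999 CPM) than in TgSpi1FA-/- preleukaemic libraries (5316 to 6512 CPM), and megakaryocyte markers were higher (165.54 to 250.02 against 31.1 to 39.9 CPM, with 43.6 to 191.8 CPM in TgSpi1FA+/+ preleukaemic libraries). In model 2, mast cell markers were higher in the leukaemic libraries (87.5 to 149.7 against 3.71 to 58.7 CPM). The summed erythroid markers of model 2 were 2837 to 3983 CPM in leukaemic and 3464 to 5057 CPM in preleukaemic libraries, with overlap. Of the 11 erythroid markers 9 in model 1 and 10 in model 2 had a negative leukaemic log2 fold change. The part of these shifts in the results below was not tested, and in bulk RNA fewer cells of a type and less RNA per cell cannot be told apart. Libraries preleukemic_445 and preleukemic_479 were much closer to each other than the other pairs of 1 group in model 1 (chi-square over degrees of freedom 8.53, against 114 to 372), yet further apart than sampling noise, and were kept as 2 samples. For preleukemic_77, preleukemic_224 and preleukemic_40 the sample titles say preleukaemic and the column names say leukaemic, and the titles were followed.

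Levels are given as CPM, the reads of a gene scaled to the library size that the TMM method sets. Together the 46 genes took 8984 to 9914 CPM in the TgSpi1FA+/+ preleukaemic, 9274 to 9785 CPM in the TgSpi1FA-/- preleukaemic and 7468 to 8596 CPM in the leukaemic libraries of model 1. The leukaemic range lay below both preleukaemic ranges, and the leukaemic mean fell by 16.2% from that of the TgSpi1FA-/- preleukaemic libraries, with leukemic_39 the highest of the 3. With library totals as the only scaling it fell by 13.2%, and the ranges still did not overlap (7570 to 8917 against 8967 to 9952 CPM). In model 2 the ranges overlapped, with 6472 to 7519 CPM in preleukaemic and 6952 to 7482 CPM in leukaemic libraries. This sum hid a split in model 2. The 6 MCM2-7 genes took 1665 to 2283 CPM in preleukaemic and 1434 to 1521 CPM in leukaemic libraries, and the other 40 genes took 4542 to 5329 CPM in preleukaemic and 5517 to 5960 CPM in leukaemic libraries, so the groups did not overlap in either direction. The other 40 did not all rise, since of all 46 genes 24 had a positive and 22 a negative log2 fold change in model 2. Their sum also leans on abundant genes. Pcna alone took 411 to 908 CPM in preleukaemic and 628 to 943 CPM in leukaemic libraries. In model 1 the MCM2-7 sum overlapped between TgSpi1FA-/- preleukaemic (2911 to 3208 CPM) and leukaemic libraries (2198 to 3301 CPM), whereas the sum of the other 40 did not (6364 to 6626 against 5129 to 5296 CPM).

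**Figure D1:**
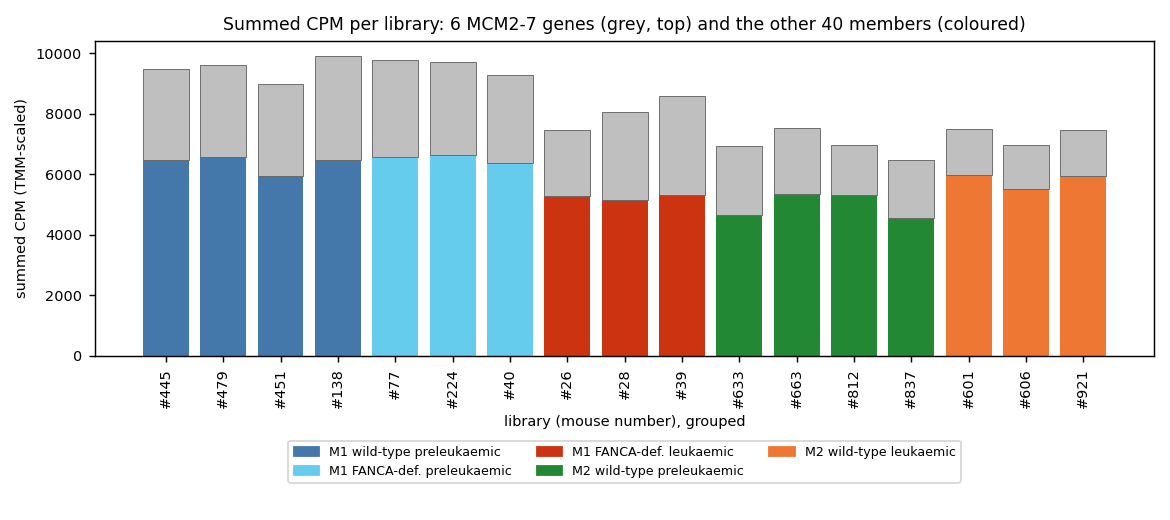
Summed CPM (y axis) of the 46 genes in each of the 17 libraries (x axis, by mouse number), with the 6 MCM2-7 genes in grey on top of the other 40 genes, which are coloured by group. The 3 leukaemic libraries of model 1 (7468 to 8596 CPM) are lower than the 7 preleukaemic libraries of that model, and in model 2 only the division between grey and colour differs between the groups.

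Per kilobase of exon the MCM genes led in model 1. Mcm5 was first in TgSpi1FA+/+ preleukaemic libraries (149 ± 23.4 CPM per kb, SD, n = 4) and Mcm3 was next (147 ± 15.1), with a difference smaller than their SDs. In TgSpi1FA-/- preleukaemic libraries Mcm5 was again first (175 ± 38.7, n = 3), and in leukaemic libraries Mcm6 was (149 ± 59.2, n = 3), with an SD that covered the next genes. The lowest levels per kb in leukaemic libraries of model 1 were those of Gins2 (7.68 ± 2.32) and Gins3 (8.17 ± 2.56), subunits of the GINS complex. In model 2 Pcna, the sliding clamp, was first at both stages (238 ± 96.3, n = 4, in preleukaemic and 306 ± 75.1, n = 3, in leukaemic libraries). How reads that also match its 2 processed copies, Pcna-ps1 and Pcna-ps2, were counted or dropped is not given in the sources used here.

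Promoter sequence was searched for 4 E2F-type words of 8 letters, TTTCCCGC, TTTCGCGC, TTTGCCGC and TTTGGCGC, on both strands, because many of these genes are known E2F targets. RefSeq windows from 250 bases before to 50 bases after the start (GRCm38.p6) were found for 37 of the 46 genes, and 16 of the 37 (43.2%) held at least 1 match, overlapping matches included. Of all 27025 genes with a window, 2.6% held one. Among those with a window, matches were found in 4 of 5 MCM2-7 genes (Mcm3, Mcm5, Mcm6 and Mcm7), in Cdc6 and Cdt1, in Orc1 and Orc3, in Pola1, Pold1, Pold3 and Pole2, and in Gins3, Rfc3, Lig1 and Clspn. A match is a run of letters and was not tested for binding. The 160 bases before the start are shown for 2 MCM genes with overlapping matches and for Pola1, the polymerase gene that the comparison of stages below turns on, with matches in capitals. They are Mcm5 (chr8:75109349-75109508, plus strand), Mcm6 (chr1:128359706-128359865, minus strand) and Pola1 (chrX:93632156-93632315, minus strand), each written 5′ to 3′ on the strand of the gene.
Mcm5: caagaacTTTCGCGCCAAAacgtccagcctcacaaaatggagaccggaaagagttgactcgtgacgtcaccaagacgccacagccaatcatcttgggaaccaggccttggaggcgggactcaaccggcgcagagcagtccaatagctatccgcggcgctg
Mcm6: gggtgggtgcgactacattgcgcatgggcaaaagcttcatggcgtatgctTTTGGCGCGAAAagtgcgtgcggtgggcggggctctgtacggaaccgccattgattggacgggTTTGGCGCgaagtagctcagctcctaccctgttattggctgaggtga
Pola1: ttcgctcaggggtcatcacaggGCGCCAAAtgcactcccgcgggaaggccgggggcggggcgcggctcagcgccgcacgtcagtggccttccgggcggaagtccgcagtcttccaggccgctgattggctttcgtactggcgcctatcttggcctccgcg
In Mcm5 a pair of matches on opposite strands shared 4 letters and began 153 bases before the start. Mcm6 had such a pair 110 bases before its start and a further match at 47 bases, and Pola1 had a single match.

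The first comparison asked what changed between TgSpi1FA-/- preleukaemic and leukaemic cells of model 1. Of the 9 polymerase and primase genes 7 had a negative log2 fold change, and 4 of these were called. Pola1, Pole, Pold1 and Prim1, which encode catalytic subunits of polymerases alpha, epsilon and delta and of primase, were called, as was Rrm2, which encodes the S phase subunit of ribonucleotide reductase, the enzyme that makes deoxynucleotides. All 5 calls (at least 1.5-fold in either direction with an adjusted p below 0.05) were lower in leukaemic cells. Calls in either direction made up 10.9% of the 46 and 13.3% of all 13393 genes tested, calls of a lower level 10.9% and 6.49%, and calls of a higher level 0% and 6.82%. The median log2 fold change of the 46 was -0.22, and that of all genes tested was 0.00. Of the 46, 34 had a negative log2 fold change (73.9%, against 50.1% of all genes), 16 had an unadjusted p under 0.05 and a negative change (34.8%, against 16.1%) and 0 had one with a positive change (0%, against 16.3%).

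Pola1 (chrX:93304767-93632155), the catalytic subunit of polymerase alpha that starts each new strand, measured 182, 176, 237 and 234 CPM in the TgSpi1FA+/+ preleukaemic libraries, 229, 238 and 242 CPM in the TgSpi1FA-/- preleukaemic libraries and 145, 133 and 139.8 CPM in the leukaemic libraries. Every leukaemic value was below every preleukaemic value of either genotype, and the change from TgSpi1FA-/- preleukaemic cells was -0.76 ± 0.14 (SE), adjusted p = 0.0134 on the log2 scale. Pole (chr5:110286306-110337474), the main leading-strand polymerase, measured 131, 111, 165 and 157 CPM in the TgSpi1FA+/+ preleukaemic libraries, 192, 239.6 and 191 CPM in the TgSpi1FA-/- preleukaemic libraries and 79.7, 114 and 126 CPM in the leukaemic libraries. The TgSpi1FA-/- stages did not overlap and the change was -0.96 ± 0.21 (SE), adjusted p = 0.0222, but the leukaemic values overlapped those of the TgSpi1FA+/+ libraries. Pold1 (chr7:44532746-44548849), the catalytic subunit of the lagging-strand polymerase delta, measured 154, 135, 125 and 148 CPM in the TgSpi1FA+/+ preleukaemic libraries, 179.8, 190 and 141 CPM in the TgSpi1FA-/- preleukaemic libraries and 86.2, 113 and 124 CPM in the leukaemic libraries. The stages did not overlap, with a change of -0.66 ± 0.17 (SE), adjusted p = 0.0346. Prim1 (chr10:128015168-128030037), the catalytic primase subunit that lays down RNA primers, measured 124, 130.3, 106 and 119 CPM in the TgSpi1FA+/+ preleukaemic libraries, 146, 144 and 112 CPM in the TgSpi1FA-/- preleukaemic libraries and 99.4, 82.2 and 80.6 CPM in the leukaemic libraries. All leukaemic values were below the 7 preleukaemic values, with a change of -0.61 ± 0.15 (SE), adjusted p = 0.0283. For each of these 4 genes and Rrm2 the two-sided exact permutation p was 0.1, the smallest that 3 libraries against 3 allow.

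Rrm2 (chr12:24708241-24714146) measured 335, 319.8, 249.7 and 239 CPM in the TgSpi1FA+/+ preleukaemic libraries, 368, 232 and 381 CPM in the TgSpi1FA-/- preleukaemic libraries and 212, 147 and 95.2 CPM in the leukaemic libraries. It had the largest fold change of the 46 (-1.11 ± 0.30 (SE), adjusted p = 0.0415) and a wide spread, and the highest leukaemic value was just below the lowest preleukaemic one, that of preleukemic_224. Its partner Rrm1, the large subunit, measured 808, 824, 767 and 794 CPM in the TgSpi1FA+/+ preleukaemic libraries, 820.1, 739 and 749 CPM in the TgSpi1FA-/- preleukaemic libraries and 565, 524 and 500 CPM in the leukaemic libraries. The 3 leukaemic values were low and close to each other, and Rrm1 passed the adjusted p but not the fold (-0.54 ± 0.10 (SE), adjusted p = 0.0148). Mcm10, a helicase activator, was in the same position (-0.57 ± 0.14 (SE), adjusted p = 0.0303), with 153, 148, 165 and 173 CPM in the TgSpi1FA+/+ preleukaemic libraries, 183, 182 and 169 CPM in the TgSpi1FA-/- preleukaemic libraries and 96.1, 133 and 130.2 CPM in the leukaemic libraries. The third deoxynucleotide gene, Tyms, which makes thymidylate, had a log2 fold change of 0.06.

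**Figure D2:**
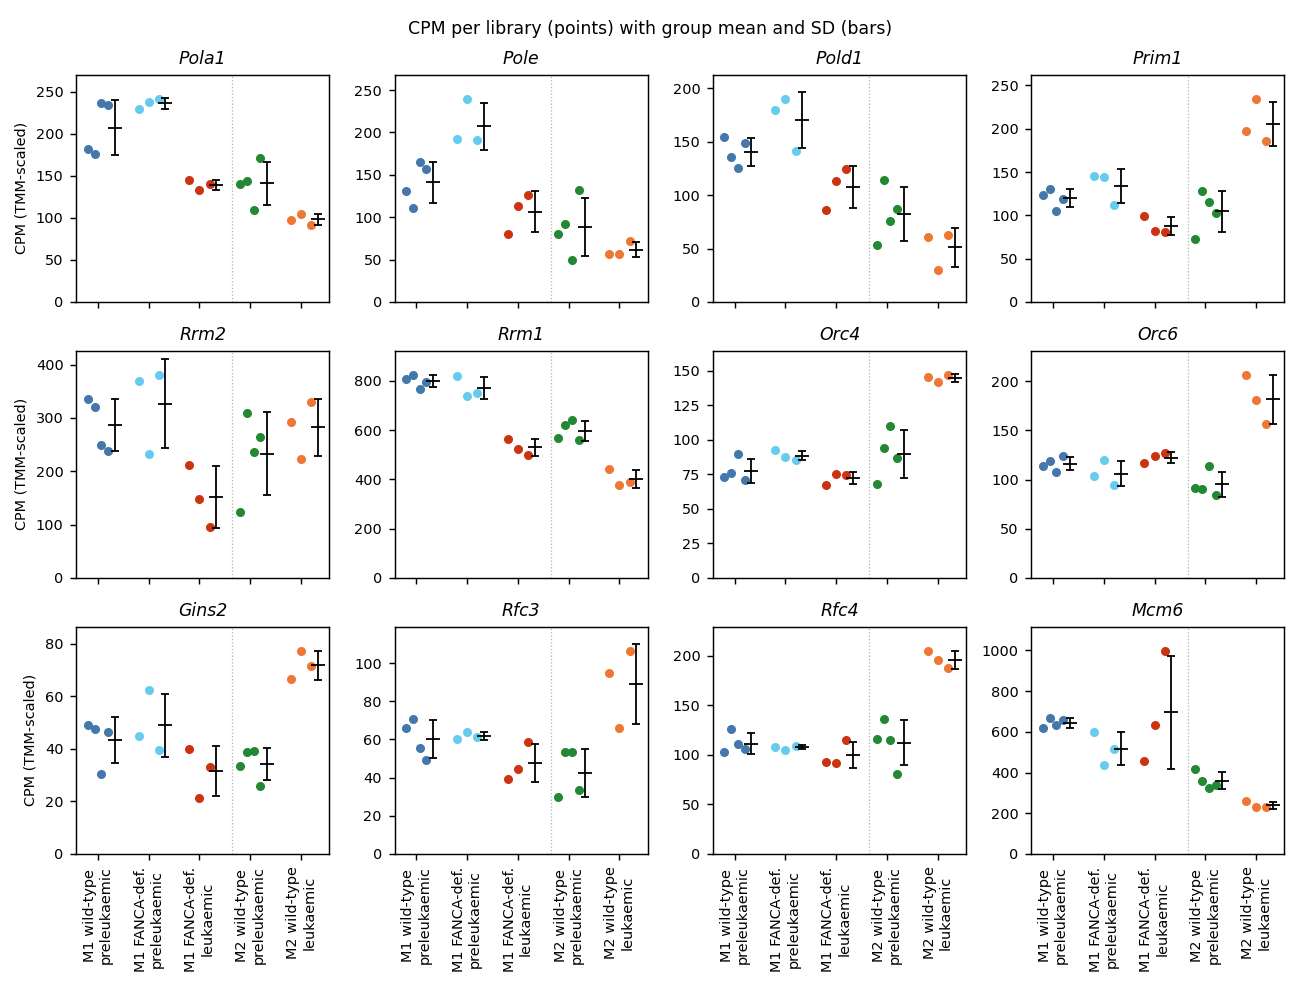
CPM (y axis, from 0) of 12 genes in every library (points) with group means and SDs (black bars), with the 3 model 1 groups left and the 2 model 2 groups right of the dotted line. Pola1 and Rrm1 are low in leukaemic libraries of both models, and Prim1, Orc4, Orc6, Gins2, Rfc3 and Rfc4 are above the preleukaemic libraries in model 2 and not in model 1.

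The MCM2-7 genes had changes of both signs in model 1 and 0 calls. Mcm2 measured 533, 517, 508 and 740.3 CPM in the TgSpi1FA+/+ preleukaemic libraries, 571, 518 and 539 CPM in the TgSpi1FA-/- preleukaemic libraries and 395, 586 and 665 CPM in the leukaemic libraries. Mcm3 measured 574, 578, 582 and 465 CPM in the TgSpi1FA+/+ preleukaemic libraries, 533, 533 and 544 CPM in the TgSpi1FA-/- preleukaemic libraries and 328, 553 and 452 CPM in the leukaemic libraries. Both overlapped between the stages (0.02 ± 0.21 (SE), adjusted p = 0.968, and -0.27 ± 0.18 (SE), adjusted p = 0.332). Mcm4 measured 443, 406, 477 and 538 CPM in the TgSpi1FA+/+ preleukaemic libraries, 493, 449 and 440.1 CPM in the TgSpi1FA-/- preleukaemic libraries and 349.9, 445.05 and 437 CPM in the leukaemic libraries, with a change of -0.17 ± 0.14 (SE), adjusted p = 0.451. Mcm5 measured 541, 554, 555 and 737 CPM in the TgSpi1FA+/+ preleukaemic libraries, 707, 846 and 538 CPM in the TgSpi1FA-/- preleukaemic libraries and 454, 472 and 469 CPM in the leukaemic libraries, without overlap of the TgSpi1FA-/- stages and with a change of -0.58 ± 0.18 (SE), adjusted p = 0.0613. Mcm6 measured 616, 668, 634 and 658 CPM in the TgSpi1FA+/+ preleukaemic libraries, 598, 435 and 515 CPM in the TgSpi1FA-/- preleukaemic libraries and 455, 635 and 997 CPM in the leukaemic libraries. Its leukaemic libraries ran from within the TgSpi1FA-/- preleukaemic range to far above it (0.43 ± 0.25 (SE), adjusted p = 0.264), with leukemic_39 the highest. Mcm7 measured 309.8, 312, 296 and 319 CPM in the TgSpi1FA+/+ preleukaemic libraries, 307, 316 and 335 CPM in the TgSpi1FA-/- preleukaemic libraries and 216, 222 and 280.1 CPM in the leukaemic libraries, without overlap, and it passed the adjusted p but not the fold (-0.41 ± 0.12 (SE), adjusted p = 0.0489). Mcm7 also holds the microRNA genes Mir25 and Mir93 on its own strand, and it shares exon bases with Cops6 and Ap4m1 on the opposite strand.

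Other roles had no call in model 1. Of the 6 origin recognition genes 5 had a negative log2 fold change, from -0.29 to -0.13, and Orc6 had 0.21. Of the licensing factors Cdt1 had -0.54 (adjusted p = 0.0902), Cdc6 -0.03 and geminin (Gmnn) 0.06. Among the helicase activation genes Gins2 (-0.64) and Gins3 (-0.62) were at the low end and Gins1 (0.48) at the high end. Clamp and clamp loader genes ran from -0.53 (Rfc2) to 0.04 (Rfc1), and the Okazaki fragment genes Fen1 and Lig1 had -0.17 and -0.45. The fork protection genes Timeless (-0.59) and Clspn (-0.63) were at the low end, whereas Tipin, which encodes the partner of TIMELESS, had 0.15. The groups did not overlap for 15 genes that were lower (32.6%, against 19.3% of all genes) and for 2 that were higher (4.35%, against 19.4%), Tipin and Pold3.

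The calls depended on single libraries. Without leukemic_28 or without preleukemic_224 there were 0 calls among the 46, without preleukemic_77 or without leukemic_39 there were 2 (Pola1 and Pole in both cases), and without preleukemic_40 or without leukemic_26 there were 6. The count over all genes ranged from 414 to 2319 in these refits. With preleukemic_445 and preleukemic_479 summed as 1 sample there were 3 calls among the 46, Pola1, Pole and Prim1. The count over all genes in that refit is not given here.

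**Figure D3:**
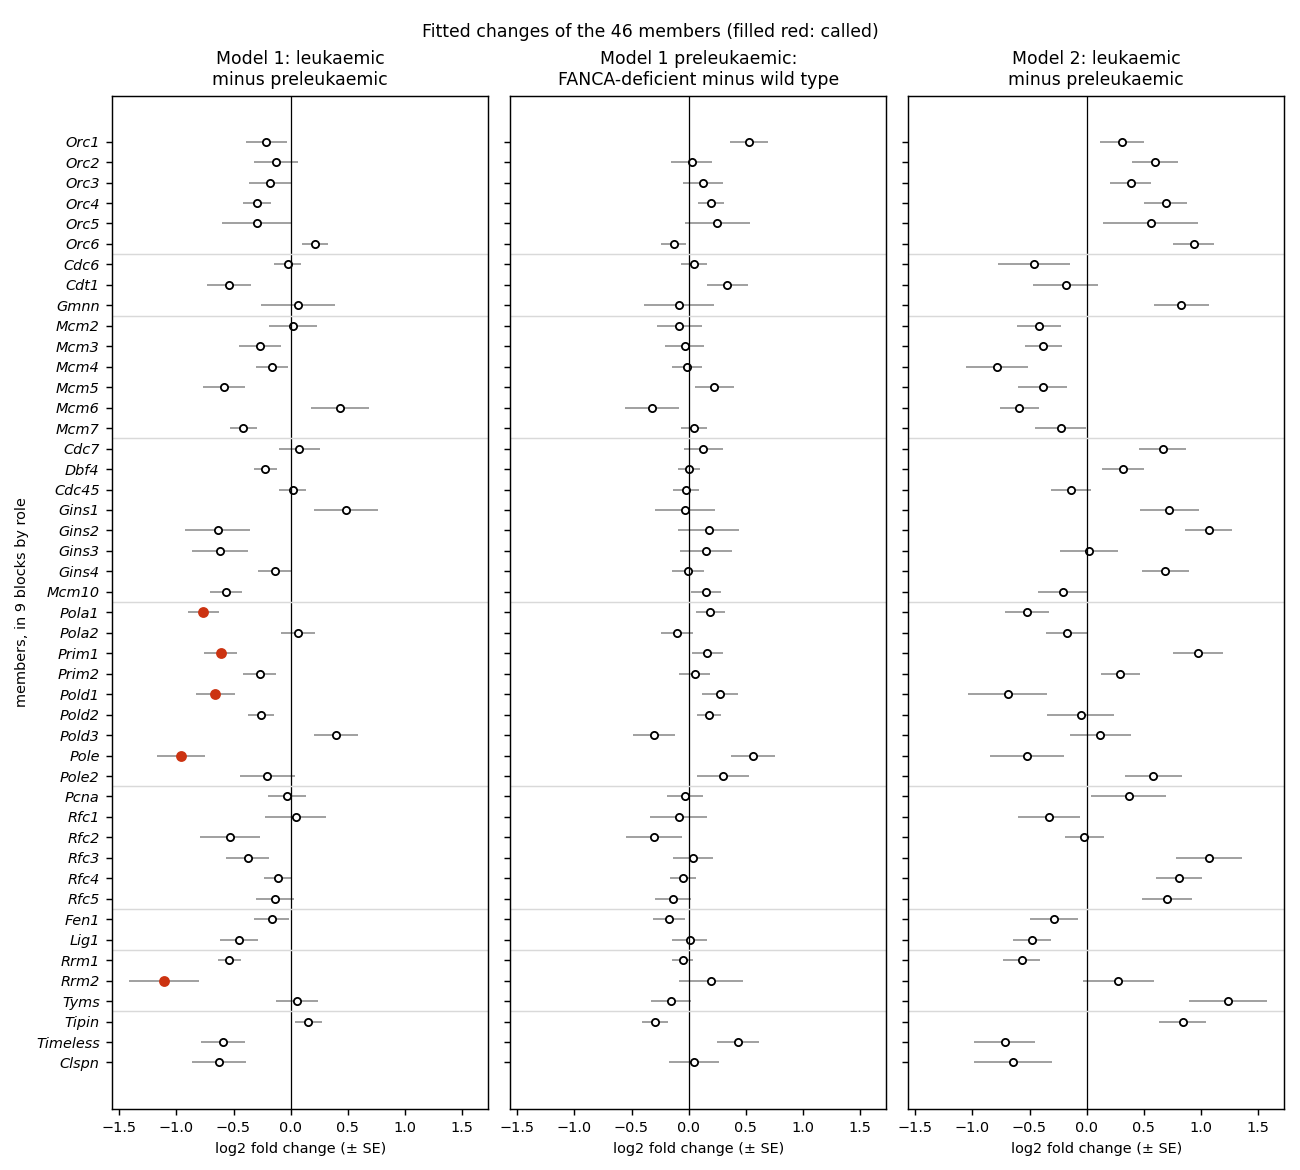
Log2 fold changes with SE (x axis) of the 46 genes, in 9 blocks by role (y axis), for the 3 comparisons within a model, where filled red points mark the 5 calls. In model 1 most leukaemic changes lie left of 0, the changes with FANCA deficiency before leukaemia lie near 0, and in model 2 the blocks part to both sides.

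The next comparison asked what FANCA deficiency changed before leukaemia. None of the 46 genes was called between TgSpi1FA-/- and TgSpi1FA+/+ preleukaemic libraries by edgeR's quasi-likelihood test (0%, against 0.00747% of all genes, which is 1 gene of 13393), and DESeq2's Wald test called 0 as well (0.994% of all genes). An unadjusted p under 0.05 was reached by 4 of 46 (8.7%, against 8.65% of all genes), and the median log2 fold change was 0.03, with a range from -0.01 without preleukemic_451 to 0.06 without preleukemic_138, so its sign rested on single libraries. The smallest p values were those of Orc1, Pole, Tipin, Timeless, Cdt1 and Pold1. Orc1, the largest subunit of the origin recognition complex, measured 57.3, 59.1, 50.5 and 42.1 CPM in the TgSpi1FA+/+ preleukaemic libraries, 72.1, 89.97 and 63.2 CPM in the TgSpi1FA-/- preleukaemic libraries and 62, 61.1 and 71.2 CPM in the leukaemic libraries. The preleukaemic genotypes did not overlap and TgSpi1FA-/- was higher by 0.52 ± 0.17 on the log2 scale (SE, adjusted p = 0.535). Pole did not overlap either (0.56 ± 0.19 (SE), adjusted p = 0.535), so the preleukaemic values from which its leukaemic fall was measured all lay above those of the TgSpi1FA+/+ libraries. Tipin measured 203, 229, 176 and 183 CPM in the TgSpi1FA+/+ preleukaemic libraries, 166, 163 and 153 CPM in the TgSpi1FA-/- preleukaemic libraries and 187, 179 and 170.4 CPM in the leukaemic libraries, with all TgSpi1FA-/- preleukaemic values lower (-0.30 ± 0.11 (SE), adjusted p = 0.545). Timeless measured 139.5, 142, 171 and 153 CPM in the TgSpi1FA+/+ preleukaemic libraries, 217, 239.7 and 154 CPM in the TgSpi1FA-/- preleukaemic libraries and 108, 135 and 163 CPM in the leukaemic libraries, with overlap (0.43 ± 0.18 (SE), adjusted p = 0.563). Cdt1 measured 145, 139, 132 and 161 CPM in the TgSpi1FA+/+ preleukaemic libraries, 179.9, 227 and 141 CPM in the TgSpi1FA-/- preleukaemic libraries and 101, 133 and 143 CPM in the leukaemic libraries, also with overlap (0.34 ± 0.18 (SE), adjusted p = 0.635), and Pold1 had 0.27 ± 0.16 (SE), adjusted p = 0.658. With 4 libraries against 3, the exact permutation test cannot go below 0.0571, which Orc1, Pole, Tipin, Mcm6 and Pold2 reached. These 5 were the genes without overlap of the genotypes, 3 of them higher in TgSpi1FA-/- (6.52%, against 4.26% of all genes) and 2 lower (4.35%, against 4.27%).

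Model 2 compared leukaemic with preleukaemic cells that both had FANCA. No gene of the 46 was called by the quasi-likelihood test (0%, and 0% of all 12970 genes tested), with a smallest adjusted p of 0.162. An unadjusted p under 0.05 was reached by 22 of the 46 (47.8%, against 19.9% of all genes), 15 with a higher (32.6%, against 8.59%) and 7 with a lower level in leukaemic cells (15.2%, against 11.4%). The median of the 46 was 0.07 and that of all genes was -0.03. The median of the 46 ran from -0.02 without preleukemic_837 to 0.18 without preleukemic_812, so its sign turned with 1 library. DESeq2's Wald test called 3 of the 46, Gins2, Orc6 and Prim1, all higher, and 470 of all genes (2.02%, and 0.649% higher). The groups did not overlap for 14 genes that were higher in leukaemic libraries (30.4%, against 9.65%) and for 6 that were lower (13%, against 10.4%).

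The genes with a higher level came from several complexes. Gins2 measured 33.4, 38.7, 39.4 and 25.9 CPM in the preleukaemic libraries and 66.5, 77.3 and 71.7 CPM in the leukaemic libraries. Orc6, the smallest origin recognition subunit, measured 91.3, 90.6, 114 and 84.3 CPM in the preleukaemic libraries and 207, 181 and 157 CPM in the leukaemic libraries. Prim1 measured 73, 128, 116 and 103 CPM in the preleukaemic libraries and 197, 234 and 186 CPM in the leukaemic libraries. In all 3 the groups did not overlap, with log2 fold changes of 1.06 ± 0.20 (SE), 0.93 ± 0.18 and 0.97 ± 0.22. Tipin measured 195, 178, 205 and 124 CPM in the preleukaemic libraries and 325, 327 and 289 CPM in the leukaemic libraries, also without overlap (0.84 ± 0.21). The clamp loader gene Rfc4 measured 116, 136, 115 and 81.2 CPM in the preleukaemic libraries and 205, 195 and 187 CPM in the leukaemic libraries. Rfc3, of the same complex, measured 29.8, 53.2, 53.5 and 33.4 CPM in the preleukaemic libraries and 94.7, 66 and 106 CPM in the leukaemic libraries. Neither overlapped, with changes of 0.81 ± 0.20 and 1.07 ± 0.29. Orc4 measured 67.8, 93.8, 110 and 87.1 CPM in the preleukaemic libraries and 145, 142 and 147 CPM in the leukaemic libraries, with 3 close leukaemic values all above the highest preleukaemic one (0.69 ± 0.19). All 6 origin recognition genes had a positive log2 fold change, from 0.31 (Orc1) to 0.93 (Orc6), with an adjusted p of at least 0.162. Tyms had the largest change of the 46 (1.24 ± 0.34), and the handling of reads that also match its processed copy Tyms-ps is not given. For Gins2, Orc6, Prim1, Tipin, Rfc4, Rfc3 and Orc4 the exact permutation p was 0.0571, the smallest possible.

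All 6 MCM2-7 genes had a negative log2 fold change in model 2. Mcm6 measured 417, 360.5, 324 and 337 CPM in the preleukaemic libraries and 259, 229.6 and 229 CPM in the leukaemic libraries. Mcm4 measured 369, 227, 174 and 275 CPM in the preleukaemic libraries and 166, 159.8 and 129 CPM in the leukaemic libraries. Mcm3 measured 304, 381, 348 and 355 CPM in the preleukaemic libraries and 277, 280 and 242 CPM in the leukaemic libraries. In these 3 the leukaemic values were all below the preleukaemic ones (-0.59 ± 0.17 (SE), adjusted p = 0.162, -0.78 ± 0.27 (SE), adjusted p = 0.186 and -0.38 ± 0.16 (SE), adjusted p = 0.244). Mcm2 measured 319, 324, 219 and 251 CPM in the preleukaemic libraries and 199, 222 and 205 CPM in the leukaemic libraries. Mcm5 measured 535, 462, 333 and 359 CPM in the preleukaemic libraries and 325, 297 and 347 CPM in the leukaemic libraries. Mcm7 measured 339.9, 434, 267 and 353 CPM in the preleukaemic libraries and 295, 245 and 353 CPM in the leukaemic libraries. These overlapped, with changes of -0.41 ± 0.19, -0.39 ± 0.21 and -0.23 ± 0.22. The licensing factors Cdc6 and Cdt1 had -0.46 and -0.18, and their inhibitor Gmnn had 0.83 (adjusted p = 0.163). Pola1 measured 139.8, 144, 109 and 171 CPM in the preleukaemic libraries and 97.7, 105 and 92.1 CPM in the leukaemic libraries. Rrm1 measured 567, 619.7, 641 and 561 CPM in the preleukaemic libraries and 443, 376 and 388 CPM in the leukaemic libraries. Both were lower in every leukaemic than in every preleukaemic library (-0.52 ± 0.19 (SE), adjusted p = 0.198, and -0.57 ± 0.16 (SE), adjusted p = 0.162). Pole measured 80.1, 92.3, 49.4 and 133 CPM in the preleukaemic libraries and 56.3, 56.9 and 71.9 CPM in the leukaemic libraries. Pold1 measured 53.5, 115, 76 and 86.6 CPM in the preleukaemic libraries and 61, 30.1 and 62.6 CPM in the leukaemic libraries. Rrm2 measured 124, 309, 235 and 264 CPM in the preleukaemic libraries and 293, 223.7 and 329 CPM in the leukaemic libraries. All 3 overlapped, with changes of -0.52, -0.69 and 0.27. Mcm10 measured 100.4, 99.7, 67.7 and 111 CPM in the preleukaemic libraries and 91.7, 87.2 and 67.1 CPM in the leukaemic libraries. Orc1 measured 46.1, 53.2, 38 and 39.96 CPM in the preleukaemic libraries and 60.2, 53.9 and 50.9 CPM in the leukaemic libraries. Cdt1 measured 36.3, 85.4, 61.4 and 54.4 CPM in the preleukaemic libraries and 49.9, 51.5 and 55.5 CPM in the leukaemic libraries. The stages overlapped for these 3 as well. Timeless measured 77.8, 86.9, 50.9 and 101 CPM in the preleukaemic libraries and 47.8, 40 and 56.8 CPM in the leukaemic libraries, with overlap and a change of -0.72 ± 0.26.

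Transcript length moved with the model 2 changes. Over all 12959 genes with a length, Spearman's rho between the model 2 log2 fold change and the length of the longest coding transcript was -0.40, and medians over 5 equal groups by length went from 0.43 for the shortest to -0.46 for the longest genes. Over the 46 genes rho was -0.64. The 15 genes that were higher with an unadjusted p under 0.05 had a median length of 1706 bases and the 7 that were lower had 3997 bases. In model 1 rho was -0.05 over all genes and -0.36 over the 46. These are descriptions across genes, which share the libraries. With each library's trend on length removed, the model 2 changes were 1.23 for Gins2, 0.66 for Orc6, 0.74 for Prim1, 0.67 for Tipin, 0.48 for Rfc4 and 0.77 for Rfc3, and there were still 0 calls. For Rfc4 this was down from 0.81. Fragmentation was the same in the 2 groups of model 2 by the labels, RNA integrity is not given in the sources used here, and the part of length in the result was not tested further.

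**Figure D4:**
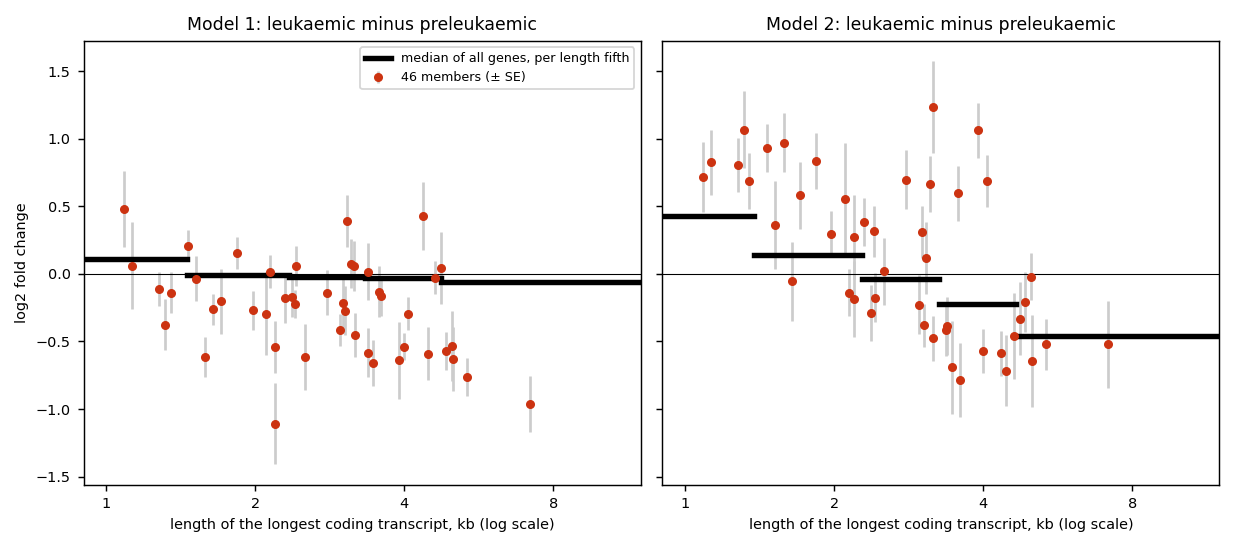
Log2 fold change with SE (y axis) of the 46 genes (red points) against the length of the longest coding transcript in kb (x axis, log scale), for the leukaemic change in model 1 (left) and model 2 (right), with medians of all genes in 5 groups of equal number by length (black lines). In model 2 the lines step down from 0.43 to -0.46 and the points descend with them.

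A fit of all 17 libraries tested whether the leukaemic change differed between the models, over 14597 genes. Of the 46 genes 6 passed an adjusted p of 0.05 (13%, against 4.61% of all genes), all more negative in model 1 (13%, against 1.85%). They were Prim1 (-1.60 ± 0.27 (SE), adjusted p = 0.0285), Gins2 (chr8:120578633-120589304, -1.72 ± 0.36 (SE), adjusted p = 0.0298), Orc4 (chr2:48902824-48950277, -0.99 ± 0.22 (SE), adjusted p = 0.034), Rfc4 (chr16:23113943-23127737, -0.93 ± 0.22 (SE), adjusted p = 0.038), Rfc3 (chr5:151642756-151651242, -1.45 ± 0.35 (SE), adjusted p = 0.0383) and Orc6 (chr8:85299632-85308278, -0.74 ± 0.20 (SE), adjusted p = 0.0487). In model 1, Gins2 measured 49.1, 47.7, 30.5 and 46.6 CPM in the TgSpi1FA+/+ preleukaemic libraries, 45, 62.5 and 39.6 CPM in the TgSpi1FA-/- preleukaemic libraries and 40.04, 21.2 and 33.1 CPM in the leukaemic libraries. Orc4 measured 72.7, 76.1, 89.5 and 71 CPM in the TgSpi1FA+/+ preleukaemic libraries, 92.2, 87.7 and 85.7 CPM in the TgSpi1FA-/- preleukaemic libraries and 67, 75 and 74.6 CPM in the leukaemic libraries. Rfc4 measured 103, 126, 111 and 106 CPM in the TgSpi1FA+/+ preleukaemic libraries, 108, 105 and 109 CPM in the TgSpi1FA-/- preleukaemic libraries and 92.6, 91.6 and 115 CPM in the leukaemic libraries. The changes of these 3 genes within model 1 were not called (-0.64, -0.29 and -0.11), and Gins2 and Rfc4 overlapped between the stages. Rfc3 measured 66.2, 70.5, 55.4 and 49 CPM in the TgSpi1FA+/+ preleukaemic libraries, 60.2, 64.1 and 61.3 CPM in the TgSpi1FA-/- preleukaemic libraries and 39.5, 44.8 and 58.9 CPM in the leukaemic libraries. Orc6 measured 113, 119, 108 and 124 CPM in the TgSpi1FA+/+ preleukaemic libraries, 104, 119.8 and 94.7 CPM in the TgSpi1FA-/- preleukaemic libraries and 117, 124 and 127 CPM in the leukaemic libraries. Neither was called within model 1 (-0.37 and 0.21), so of the 6 genes the quasi-likelihood test called only Prim1 in model 1 and none in model 2. An unadjusted p under 0.05 was reached by 18 genes that were more negative in model 1 (39.1%, against 11%) and by 1, Mcm6, that was more positive (14.8% of all genes were, and Mcm6 had 1.0045 ± 0.30 (SE), adjusted p = 0.0612). DESeq2's Wald test called 7, these 6 and Mcm6 (9.34% of all genes). Orc4, Orc6, Gins2, Rfc4, Pole, Orc1, Timeless and Mcm7 share exon bases with a gene on the opposite strand, whose reads can be told apart only if strand was used in counting.

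Pola1, Pold1 and Rrm1 had negative changes in both models and did not pass this test. Pola1 had -0.26 ± 0.22 (SE), adjusted p = 0.485, Pold1 0.02 ± 0.39 (SE), adjusted p = 0.983 and Rrm1 0.02 ± 0.16 (SE), adjusted p = 0.958. For Rrm1 the values within the models were close (-0.54 in model 1 and -0.57 in model 2). Rrm2 had -1.39 ± 0.45 (SE), adjusted p = 0.0787. The number of genes that passed changed with the libraries. It was 0 without preleukemic_77, preleukemic_224, leukemic_28, leukemic_39 or leukemic_921, 1 (Prim1) without preleukemic_40, leukemic_601 or leukemic_606, 3 without preleukemic_633, 5 without preleukemic_663 or preleukemic_837, 8 without leukemic_26 and 10 without preleukemic_812. The count over all genes ranged from 1 to 1359 in the same refits, so such swings were not particular to these genes. With each library's trend on length removed 4 passed (Gins2, Orc4, Prim1 and Rfc3), and with the trend on GC content removed 3 passed (Gins2, Prim1 and Rfc3). The counts over all genes in these refits are not given here, so no share stands beside them. With the GC trend removed the difference for Orc4 was -0.33 (adjusted p = 0.404 in edgeR's quasi-likelihood test) in place of -0.99. Strain and protocol differ between the models as well, and their part was not tested.

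**Figure D5:**
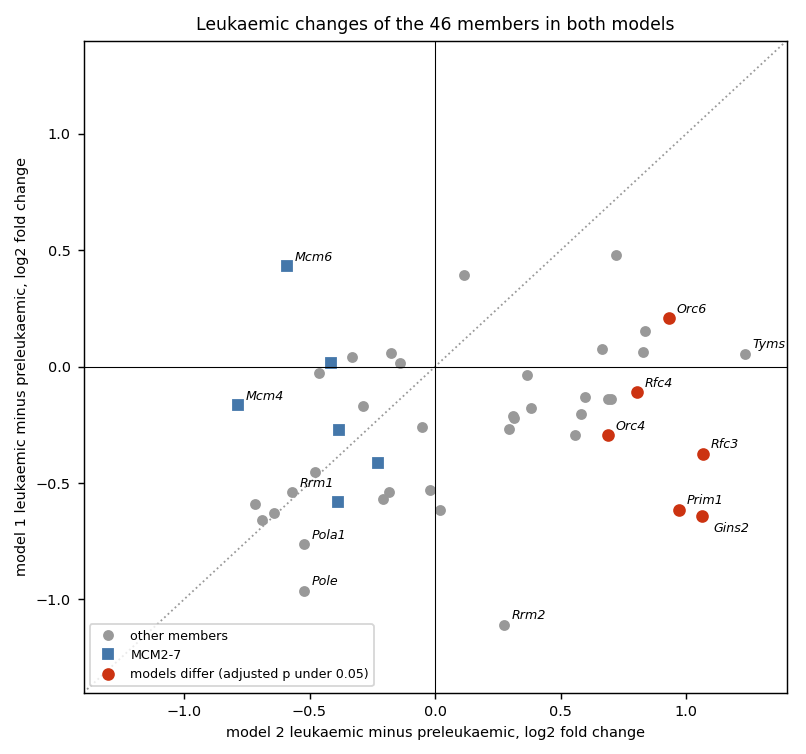
Leukaemic log2 fold change of the 46 genes in model 1 (y axis) against that in model 2 (x axis), with the 6 genes that differed between the models in red, MCM2-7 genes as blue squares and the line of equal change dotted. The red points lie right of and below the dotted line, Pola1, Pole and Rrm1 lie in the lower left corner, and Mcm6 (0.43 in model 1 and -0.59 in model 2) lies in the upper left corner.

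Further lists of related genes were read the same way, with counts and medians and no set test, and values in parentheses are the log2 fold change and the adjusted p. Of all genes 13.3% were called in model 1 leukaemic cells, 6.82% higher and 6.49% lower, and the list counts that follow stand beside those shares. Of 26 fork and origin accessory genes 3 were called in model 1 leukaemic cells, all lower: Chtf18, part of an alternative clamp loader (-1.04, adjusted p = 0.0148), Mcm9, a helicase of homologous recombination (-0.82, 0.0166), and Pole4, a small subunit of polymerase epsilon (-0.76, 0.0175). The median of the list was -0.16. Of 12 nucleotide supply genes 3 were called, all higher: Shmt1, a folate enzyme (1.39, 0.0188), Samhd1, which breaks deoxynucleotides down (0.70, 0.0456), and Impdh2, which makes guanine nucleotides (0.62, 0.0269). Their list median was 0.24. Of 9 S phase chromatin assembly genes 1 was called, the histone chaperone subunit Chaf1b (-0.89, 0.0274), with a median of -0.15.

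Of 19 G1/S regulators 3 were called in model 1: E2f5 (1.27, adjusted p = 0.0158) and Skp2, which marks cell cycle inhibitors for destruction (1.1404, 0.0303), were higher, and the repressor E2f8 was lower (-1.03, 0.0269). The median was 0.05. Of 12 G2/M proliferation markers 1 was called, the mitotic kinase Aurka (1.04, 0.0148), with 6 genes above and 6 below 0. No gene of these 5 lists was called with FANCA deficiency before leukaemia or in model 2 by the quasi-likelihood test. The leukaemic changes of 5 listed genes differed between the models, where 4.61% of all genes passed: Pole4 (-1.77, adjusted p = 0.0285), Dscc1 (-1.25, 0.0444) and Birc5 (-0.93, 0.0468) were more negative in model 1, and Top1 (1.48, 0.0345) and Samhd1 (1.56, 0.0306) were more positive.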

How the data were processed

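Poly(A) RNA of 17 mouse blast cultures was sequenced with a stranded kit. The authors deposited raw read counts per Ensembl gene, 1 table for each model, without normalization, and per the labels the tools were bcl2fastq 2.17.1.14, STAR 2.5.3a and HTSeq 0.6.1p1 on mm10 (GRCm38). The strand setting of the counting is not given in the sources used here, and 14 of the 46 genes share exon bases with a gene on the other strand. A further count table of model 1 libraries and a copy of the model 2 table were not used. Each model was fitted with edgeR 4.0.16 (R 4.3.3): filterByExpr with the group factor, TMM factors, and the quasi-likelihood F test (glmQLFit, glmQLFTest) over the 3 groups of model 1 or the 2 of model 2, and Benjamini-Hochberg adjustment over all genes tested. A call needed an adjusted p below 0.05 together with a 1.5-fold or larger change in either direction. The difference between the models was an interaction over the genes of both tables, called by the adjusted p alone. Exact permutation tests on log2 CPM were two-sided (scipy 1.17.1). Positions, exon lengths and transcript lengths are those of GENCODE M21 (GRCm38), in which 99.8% of model 1 and 99.9% of model 2 identifiers were found, and promoter windows came from RefSeq (GRCm38.p6). The fits were also run on simulated counts, drawn independently for each library with known changes in some genes. That outcome is not given here and no result leans on it. Alternatives were DESeq2 1.42.0 (Wald test and size factors), library totals, other filters, robust empirical Bayes, a test against a fold of 1.5, only the groups compared, preleukemic_445 and preleukemic_479 summed and leaving out each library, and, chosen after seeing the data, removal of length and GC trends (lowess span 0.3). Values in every library are given for the MCM2-7 genes, each gene called and up to 6 genes with the smallest p of each test. Of other lists the called genes are named. The genes, lists and tests were chosen with earlier results of these data known. Counts between 29964576 and 40514205 per library were the depth behind each value. Each library was 1 mouse.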

Additional observations from a re-analysis of the deposited data

Results flagged for a closer look

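Among the 4 TgSpi1FA+/+ preleukaemic libraries of model 1, preleukemic_138 lay far from the other 3 for 3 MCM genes: Mcm2 was at 740.3 CPM (the others at 508 to 533), Mcm5 at 737 CPM (the others at 541 to 555) and Mcm3 at 465 CPM (the others at 574 to 582), so 2 were high and 1 was low in the same library. Gins2 was at 30.5 CPM in preleukemic_451, with the others at 46.6 to 49.1 CPM. These 4 came from 46 sets of 4 values examined. Chance gives about 1 in 20 for independent libraries. These sets share libraries and, in model 1, hold preleukemic_445 and preleukemic_479, which are far closer to each other than other pairs of 1 group in model 1 are, so they are not independent.

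The leukaemic change differed between the models, by the interaction in edgeR's quasi-likelihood test, for Prim1 (-1.60 on the log2 scale), Gins2 (-1.72), Rfc3 (-1.45), Orc4 (-0.99), Rfc4 (-0.93) and Orc6 (-0.74), each as the change in model 1 minus that in model 2. The differences kept their sign without each library in turn, but the number of genes of this set that passed ran from 0 to 10 (1 to 1359 over all genes). With each library's trend on length removed Gins2, Orc4, Prim1 and Rfc3 still passed. With the trend on GC content removed Gins2, Prim1 and Rfc3 did, and the difference for Orc4 was -0.33. For these refits the counts over all genes are not given here. Strain and protocol move with the comparison of models, and their part was not tested.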

How the results depend on the processing

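No paired analysis was possible because the numbers in the labels are those of single mice and no number occurs in more than 1 group. No gene named for a comparison changed the sign of its change under any alternative run. The 5 calls among the 46 genes in model 1 leukaemic cells became 3 with library totals, 3 without a filter, 2 with only the groups compared, 3 with preleukemic_445 and preleukemic_479 summed, 0 when the fold was tested against 1.5 and 8 by the adjusted p alone. Leaving out each library gave 0 to 6. Over all 13393 genes the adjusted p alone was passed by 1919, and library totals gave 964 higher and 738 lower calls. For no filter, only the groups compared and the summed libraries, the count over all genes is not given here for this comparison. With FANCA deficiency before leukaemia the count was 0 under every alternative, and 0 to 0 without each library. In model 2 it was 0 to 0 without each library and 3 with DESeq2's Wald test. The 6 genes that differed between the models became 3 with the GC trend removed, and 0 to 10 without each library. With the GC trend removed, the count over all genes is not given here. Where a lower count came with fewer samples, fewer libraries also entered the fit. For the other settings the cause was not tested. Over all genes DESeq2's Wald test called 3099 (1782 in edgeR) in model 1 leukaemic cells, 256 (1) with FANCA deficiency, 470 (0) in model 2 and 2043 (673) between the models, the test against a fold of 1.5 called 510 in model 1 leukaemic cells, and no filter gave 4 (1) with FANCA deficiency. Without each library the counts over all genes ran from 414 to 2319, from 1 to 16, from 0 to 1 and from 1 to 1359 in these 4 comparisons. Libraries held 29964576 to 40514205 counted reads, and whether depth or the number of mice limits the smallest difference that can be called was not tested.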

Other observations

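The 52 tested genes within 5 Mb of Mcm6 had a median log2 fold change of 0.53 in model 1 leukaemic against TgSpi1FA-/- preleukaemic libraries, beside 0.43 for Mcm6 itself, and the 52 tested in model 2 had -0.20, beside -0.59. Around Pola1 the 20 tested genes had a median of 0.21 in model 1, against -0.76 for Pola1, and the 17 tested in model 2 had -0.24, against -0.52. Around Rrm1 the 82 tested genes had -0.52 in model 2, beside -0.57 for Rrm1, and in model 1 the 92 tested genes had -0.05, beside -0.54. These 3 neighbourhoods were chosen after the values were seen, and no test was made of them.

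Within model 1 the lowest library was leukemic_26 for 18 of the 46 genes, preleukemic_451 for 8, leukemic_39 for 8 and leukemic_28 for 6, and within model 2 it was preleukemic_837 for 15, preleukemic_633 for 10 and leukemic_921 for 9. The same counts over all genes were not made, so whether they are particular to these genes was not tested.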
